A study of Mus musculus with 18 samples.

Results

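The genes described here are 41 mouse genes of the interferon response and of antigen presentation. They were chosen by name as a functional group, with earlier results of these data known. The deposited count tables hold a row for 40 of them among 23420 genes, and all 40 passed the filter on low counts, as did 14162 genes in all. The expression of Rnf213 is not analysed here. They were followed in bulk RNA sequencing of direct cardiac reprogramming, in which a retrovirus carrying Mef2c, Gata4 and Tbx5 (MGT) drives cardiac fibroblasts towards a cardiomyocyte-like state. The starting cells were cardiac fibroblasts isolated from newborn CD1 mice. Short hairpin RNAs (shRNAs) lowered Mtfr1l, a mitochondrial protein of the fission regulator family, Opa1, which drives fusion of the inner membrane of mitochondria, or both.

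The second of 2 sample sets held 12 libraries in 4 groups of 3, all of them MGT reprogramming: shNT (a non-targeting shRNA, the control), shMtfr1l, shOpa1, and shMtfr1l with shOpa1 (the double knockdown). Every group, the control included, thus carried both the reprogramming retrovirus and an shRNA. The titles name 2 shRNAs for the double knockdown and 1 for each other group, and do not say whether the dose of shRNA was matched. In comparisons of the double knockdown, the number of shRNAs and the loss of both genes therefore cannot be told apart. Titles tie replicates 1, 2 and 3 of each group to days 7, 8 and 9. As the numbers of replicate and day run together in every group, and nothing else in the labels gives the day, the days may be an error of labelling, and values by day below are also values by replicate number. The genotype field of the Opa1 knockdown libraries reads shOpa1, shOpa2 and shOpa3 over the same replicates, while the titles name shOpa1 throughout. The libraries are called biological replicates, and whether each came from its own animals is not stated. The p-values therefore cover only how far these libraries spread, and the libraries also differ in labelled day. Of the first set, 2 reprogramming samples of day 7 are used, 1 with shNT and 1 with shMtfr1l (stated knockdown 85%). Its fibroblast samples without MGT are not analysed here.

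As background, cells that sense viral or misplaced nucleic acid through RNA sensors secrete type I interferon, which binds its receptor and activates a complex that holds Stat2 and Irf9. This complex binds an interferon-stimulated response element (ISRE) in the promoters of many genes that block viral replication. Interferon gamma acts through a gamma-activated site (GAS) in promoters and induces immunity-related GTPases and the machinery that loads peptides on class I molecules. Fibroblasts respond to both kinds of interferon, and mitochondrial RNA that reaches the cytosol is a known trigger of the same RNA sensors.

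The promoters were searched for the motifs of the interferon response. The genes were listed as members of that response, so a high share of matches is no independent result. In the RefSeq promoter table of build GRCm38.p6, 33 of the 41 genes were matched by symbol. The 250 bases before the start were searched on both strands, with overlapping matches counted separately, for the ISRE core (GAAA, any 2 bases, GAAA) and for the GAS (TTC, any 3 bases, GAA). The ISRE core stood in 14 of the 33 genes (42.4%), against 3.46% of 27025 genes in the table, and the GAS in 7 (21.2%), against 8.13%. The sequences below show promoters of genes that passed a test in at least 1 comparison (Irgm1, Gbp2 and Xaf1) and of widely used interferon response and class I genes. Capitals mark the matches of either motif, on either strand, and the strand given is that of the gene, read 5′ to 3′.
Irgm1 (chr11:48871421-48871470, minus strand): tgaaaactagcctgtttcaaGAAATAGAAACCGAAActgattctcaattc
Gbp2 (chr3:142620584-142620633, plus strand): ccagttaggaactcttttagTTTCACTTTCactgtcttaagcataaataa
Isg15 (chr4:156200855-156200916, minus strand): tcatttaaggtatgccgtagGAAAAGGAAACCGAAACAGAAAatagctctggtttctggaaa
Ifit1 (chr19:34640765-34640833, plus strand): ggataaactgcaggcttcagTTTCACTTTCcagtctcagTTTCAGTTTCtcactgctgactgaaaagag
Oas1a (chr5:120907526-120907643, minus strand): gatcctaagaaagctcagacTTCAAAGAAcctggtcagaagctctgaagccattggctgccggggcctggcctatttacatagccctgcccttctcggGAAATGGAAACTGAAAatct
B2m (chr2:122147528-122147577, plus strand): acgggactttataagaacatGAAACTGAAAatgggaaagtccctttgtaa
Xaf1 (chr11:72301509-72301628, plus strand): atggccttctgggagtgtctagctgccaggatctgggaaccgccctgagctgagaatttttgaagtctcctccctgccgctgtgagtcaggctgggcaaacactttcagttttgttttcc
Isg15 holds 3 overlapping ISRE matches, Irgm1, Ifit1 and Oas1a hold 2 each, Gbp2 and B2m hold 1 each, and Oas1a also holds 1 GAS match. Xaf1 holds neither in this window. Ifi47 and H2-K1, which also passed a test and are not printed, hold neither, so that 2 of the 5 called genes in the table hold a match. A match is a description of letters and not of a bound site.

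Total gene counts ran from 16205862 to 25317069 in the second set, where 3 counts equal 0.117 to 0.183 CPM (gene counts scaled to a fixed library total). Values below are CPM scaled by TMM (trimmed mean of M values). Mtfr1l stood at 13.9 to 31.0 CPM in the libraries with its shRNA and at 65.8 to 76.6 in the others, and Opa1 at 6.85 to 20.7 against 56.9 to 73.4. Fibroblast markers summed to between 21394 and 27337 CPM, and cardiomyocyte markers to 2338 to 2394 in shNT, 3040 to 3261 in shMtfr1l, 1426 to 1574 in shOpa1 and 1853 to 1907 in the double knockdown. Macrophage and leukocyte markers were present in every library. They summed to 552.7, 372.2 and 352.4 CPM in shNT, 307.8, 719.8 and 178.2 in shMtfr1l. With shOpa1 the values were 570.1, 325.0 and 891.2, and with both shRNAs 944.1, 832.0 and 1065. The double knockdown libraries and shOpa1 replicate 3 thus held the highest sums. In bulk samples fewer cells of a type and less RNA per cell cannot be told apart.

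The levels of the 40 genes differed widely between libraries of the same group. For each gene, log2 CPM in a library was set against its mean over the 12 libraries. The median of the 40 was -0.05, -0.20 and -0.05 in replicates 1, 2 and 3 of shNT and -0.04, -0.24 and 0.32 in shMtfr1l. It was -0.59, 0.02 and 0.15 in shOpa1 and 0.49, 0.22 and -0.06 in the double knockdown. The extremes were shOpa1 replicate 1, which was the lowest of the 12 libraries for 27 of the 40 genes, and double knockdown replicate 1, which was the highest for 21. In shOpa1 replicate 1 a single gene lay above its mean, while 38 did so in double knockdown replicate 1, 37 in its replicate 2, 14 in its replicate 3 and 35 in shMtfr1l replicate 3. The median within-group SD of log2 CPM was 0.34, 0.41 and 0.27 for the 40 genes in shMtfr1l, shOpa1 and the double knockdown, against 0.14, 0.14 and 0.13 for all genes tested. In shNT it was 0.17 against 0.14.

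**Figure D1:**
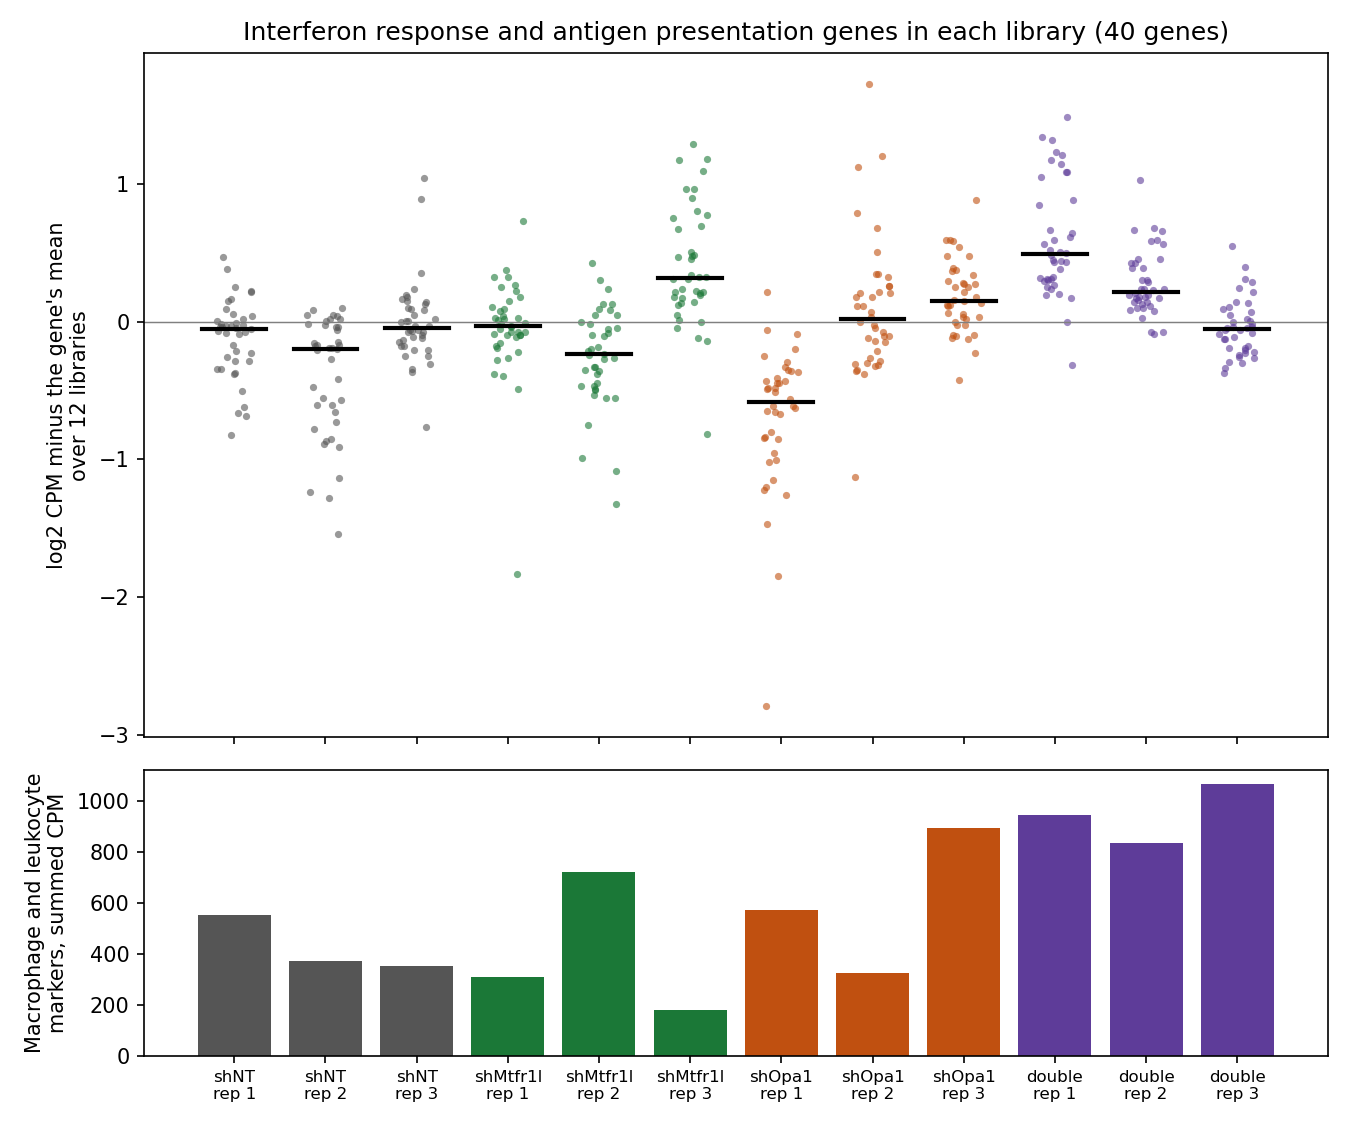
Upper panel: each point is 1 of 40 genes, the y axis gives its log2 CPM minus its mean over the 12 libraries, and the black bar is the median of the 40. Lower panel: summed CPM of macrophage and leukocyte markers in the same libraries. The medians run from -0.59 (shOpa1 replicate 1) to 0.49 (double knockdown replicate 1, marker sum 944.1 CPM). shMtfr1l replicate 3, at 0.32, has the lowest marker sum, 178.2 CPM.

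The marker sums followed that order only in part. Double knockdown replicates 1 and 2 and shOpa1 replicate 3 had medians of 0.49, 0.22 and 0.15. Their marker sums were also high, at 944.1, 832.0 and 891.2 CPM. By contrast, shMtfr1l replicate 3 had the second highest median of the 40 genes and the lowest marker sum. Double knockdown replicate 3 had a median of -0.06 and the highest sum. Of 15 macrophage and leukocyte markers tested, 2 were higher in the double knockdown than in shNT (Cx3cr1 and C1qa) and 1 in shOpa1 (C1qa), and none was lower in either. Of all genes, 11.2% were called higher and 11.9% lower in the double knockdown, and 14.3% and 15.1% in shOpa1. The fitted values of the markers were positive for 14 of the 15 in both, with a median of 1.51 on the log2 scale in the double knockdown and 0.79 in shOpa1. Against shMtfr1l the double knockdown had 14 of 15 markers positive with a median of 1.36 and 1 called higher, where 9.72% of all genes were called higher. Cd3e, a T cell marker, was at 0 in every library. What part these cells have in the levels of the 40 genes was not tested.

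Between libraries of the same labelled day, the median difference of the 40 genes changed sign between days in 4 of the 5 comparisons of groups and was positive on all 3 days in shMtfr1l against shNT. The double knockdown library of day 7 had a median of the 40 genes 0.60 above shNT on the log2 scale, with 39 of 40 genes higher. On day 8 the median was 0.46 and 40 of 40 were higher, and on day 9 it was -0.02 and 19 of 40 were higher. Over all genes tested, between 49.3% and 51.5% were higher on these days. Against shOpa1 the double knockdown had medians of 1.11, 0.27 and -0.23 on days 7, 8 and 9, with 39, 25 and 8 genes higher. Against shMtfr1l the medians were 0.47, 0.38 and -0.41, with 37, 37 and 6 genes higher. shOpa1 against shNT went the other way, with medians of -0.47, 0.29 and 0.17 and with 2, 27 and 29 genes higher. shMtfr1l against shNT had medians of 0.08, 0.09 and 0.37, with 21, 26 and 31 genes higher. The comparisons share libraries, so these series are not independent of each other. With 1 library per group and day there is no test within a day, and day and library cannot be told apart.

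**Figure D2:**
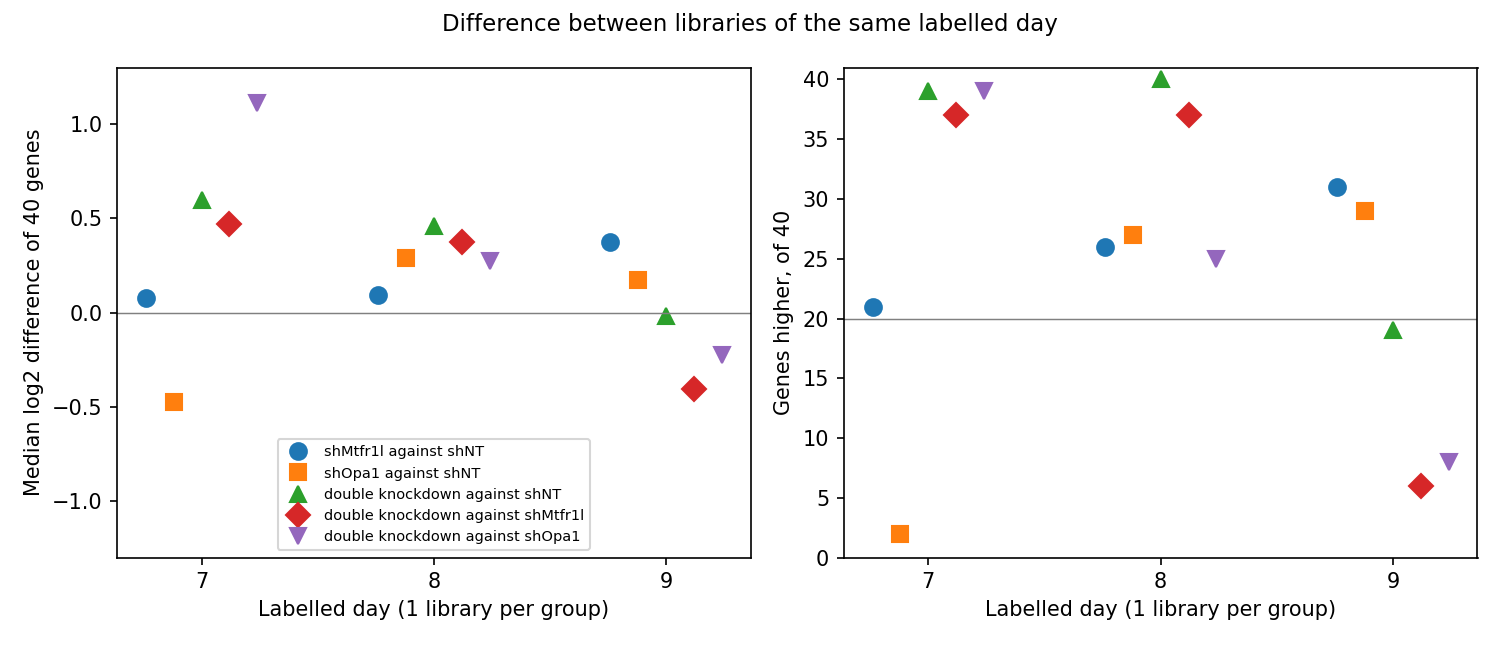
Points compare the 2 libraries of the same labelled day (x axis), with the median log2 difference of the 40 genes on the left and the number of genes higher, of 40, on the right. The 3 comparisons of the double knockdown lie above 0 on days 7 and 8 and below 0 on day 9, while shOpa1 against shNT lies below 0 on day 7 and above it on days 8 and 9.

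With the 3 libraries of each group as replicates, few of the 40 genes passed the test (edgeR's quasi-likelihood test, Benjamini-Hochberg adjustment over 14162 genes, called under 0.05). In shMtfr1l against shNT, 1 gene was higher and none lower, where 5.56% of all genes were called higher and 5.19% lower. In shOpa1 against shNT, 2 were higher and 2 lower, against 14.3% and 15.1% of all genes. In the double knockdown, 2 were higher and none lower than in shNT (11.2% and 11.9% of all genes), 1 higher and none lower than in shMtfr1l (9.72% and 11.7%), and 1 higher and none lower than in shOpa1 (2.31% and 2.46%). The interaction asks whether the double knockdown differs from the sum of both single effects on the log2 scale, and 1 gene was higher and none lower than that sum (1.57% and 1.99%). Each 1 of 40 is 2.5%, so only in the comparison with shOpa1 and in the interaction did a share of the 40 genes reach that of all genes. At an unadjusted p under 0.05 the numbers of genes were 2, 7, 7, 2, 12 and 4 in the same order. All genes had shares of 21.9%, 38.3%, 34.0%, 32.4%, 16.2% and 15.4% at that p, against 5%, 17.5%, 17.5%, 5%, 30% and 10% of the 40. DESeq2 called 1, 5, 4, 1, 2 and 1 of the 40, and 12.3%, 30.5%, 25.3%, 24.3%, 5.82% and 4.86% of all genes.

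The medians of the fitted log2 fold changes were 0.17 in shMtfr1l against shNT, with 31 of 40 genes positive, and 0.02 in shOpa1 against shNT, with 20 positive. In the double knockdown they were 0.39 against shNT (36 positive), 0.23 against shMtfr1l (30) and 0.32 against shOpa1 (34). Medians over all genes tested lay within 0.01 of 0. The counts and medians rest on few libraries. Without shOpa1 replicate 1 and double knockdown replicate 1, the median against shOpa1 was 0.0046 in place of 0.32, 8 genes were called in shOpa1 against shNT in place of 4, and 1 was called in the double knockdown against shNT in place of 2, where 24.5% and 17.6% of all genes were called. Without replicate 3 (day 9) of every group, 10, 9, 12 and 17 genes were called in shOpa1 against shNT and in the double knockdown against shNT, shMtfr1l and shOpa1, where all groups then hold 2 libraries. In that fit 22.0%, 16.8%, 15.4% and 3.20% of all genes were called in the same order.

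**Figure D3:**
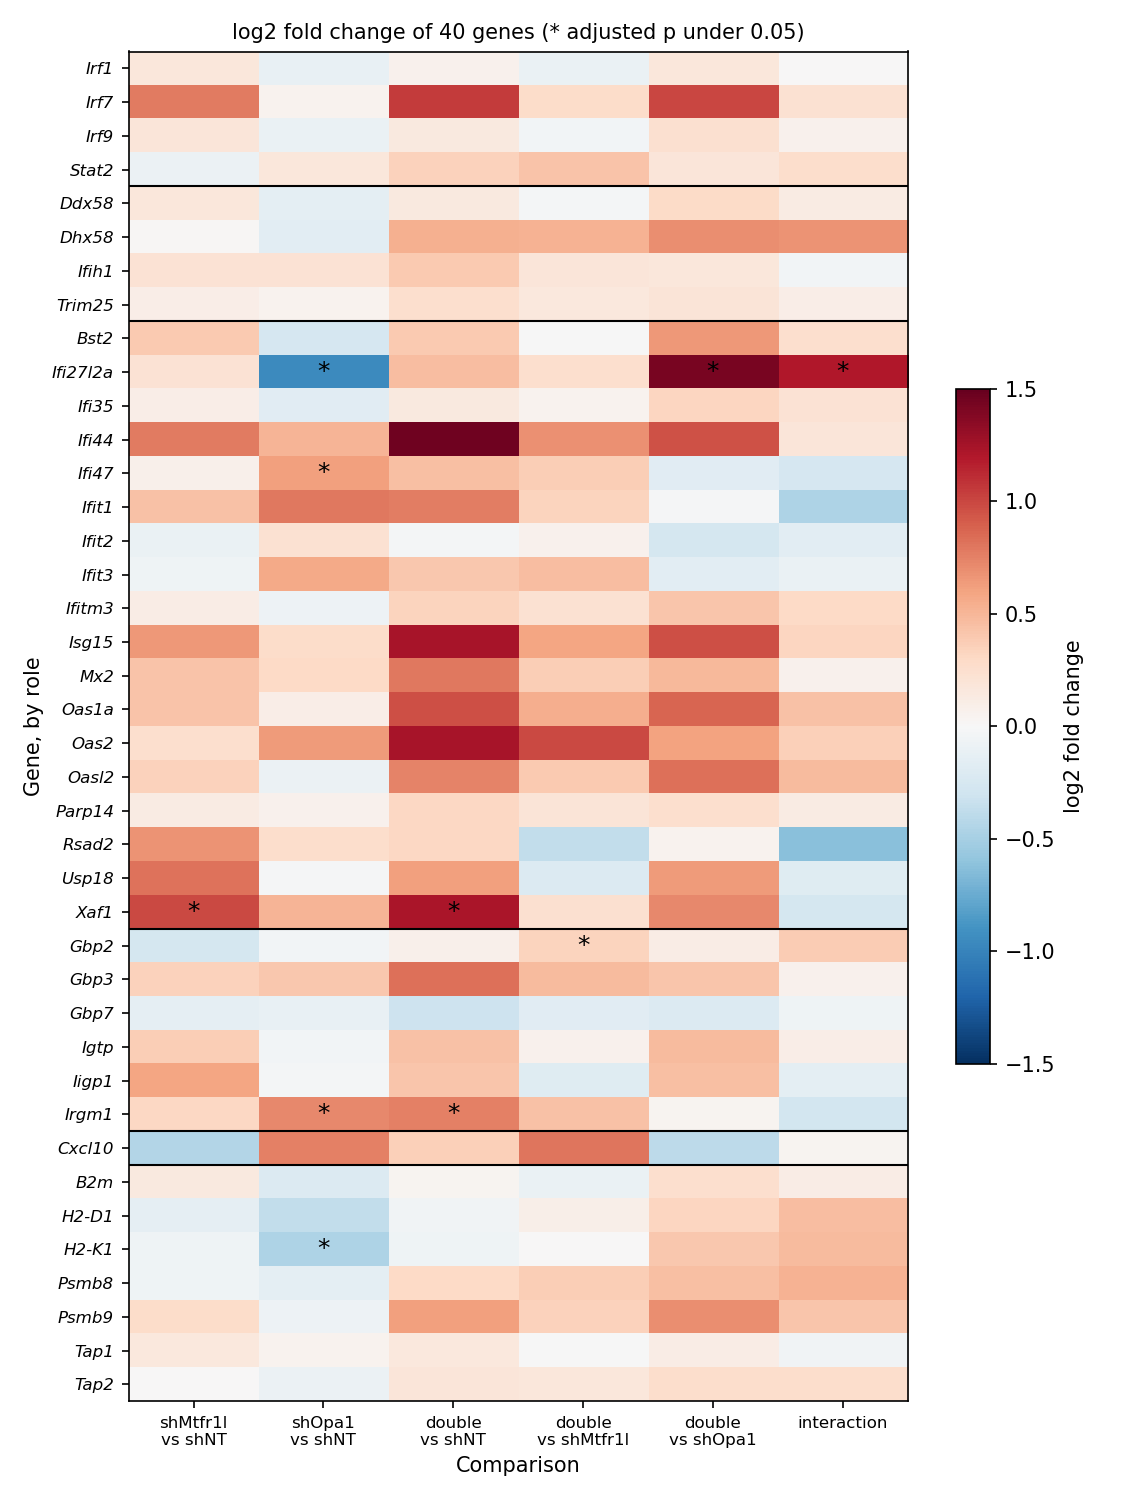
Fitted log2 fold change of each of the 40 genes (rows, grouped by role between black lines) in each comparison (columns), with red for higher, blue for lower and an asterisk for an adjusted p under 0.05. The third column, the double knockdown against shNT, is positive for 36 of 40 genes, and 10 values carry an asterisk.

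Among the transcription regulators (Irf1, Irf7, Irf9 and Stat2) no gene passed in any comparison. Stat2, a subunit of the complex that type I interferon activates and the most counted of the 4 (chromosome 10, 128270576 to 128292849), stood at 54.8, 56.3 and 52.1 CPM in shNT and 41.3, 46.1 and 66.9 in shMtfr1l. It stood at 45.4, 69.2 and 68.9 in shOpa1 and 83.0, 66.0 and 58.5 in the double knockdown, all 3 of them above shNT. The double knockdown stood 0.35 ± 0.23 above shNT on the log2 scale (SE; adjusted p = 0.333). Irf7, which amplifies the type I response, is named here after its values were seen, since its libraries spread most among the regulators. It stood at 20.9, 14.7 and 48.5 CPM in shMtfr1l and 47.4, 34.0 and 20.1 in the double knockdown, against 18.4, 12.8 and 18.004 in shNT and 11.8, 17.3 and 21.7 in shOpa1. The highest values thus came from shMtfr1l of day 9 and the double knockdown of day 7. All 4 regulators were positive in the double knockdown against shNT and against shOpa1. Irf1, which acts downstream of interferon gamma, lay between 19.1 and 30.8 CPM in all 12 libraries, and Irf9, the DNA-binding part of the complex, between 34.1 and 64.6.

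No RNA sensor passed either. The sensors Ddx58 (RIG-I), Ifih1 (MDA5) and Dhx58 (LGP2) detect double-stranded or triphosphate RNA, and Trim25 is the ubiquitin ligase that activates RIG-I. Trim25, the most counted of them (chromosome 11, 88999403 to 89020293), stood at 65.2, 60.8 and 67.0 CPM in shNT and 64.1, 57.9 and 84.7 in shMtfr1l. It stood at 48.8, 77.5 and 74.4 in shOpa1 and 84.8, 69.7 and 75.4 in the double knockdown, where all 3 libraries lay above the shNT libraries. Dhx58 ranged from 4.55 CPM in shOpa1 replicate 1 to 16.4 in double knockdown replicate 1, a span of 3.60-fold, against 2.02-fold for Ifih1, 1.94-fold for Ddx58 and 1.74-fold for Trim25. All 4 were positive in the double knockdown against shNT, from 0.14 to 0.54 on the log2 scale.

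The antiviral effectors are the largest group, with 18 genes tested, of which Xaf1, Ifi27l2a and Ifi47 passed in at least 1 comparison. The share of all genes called in at least 1 comparison was not computed. In shOpa1 against shNT alone, 14.3% of all genes were called higher and 15.1% lower. Xaf1, an interferon-induced protein that binds and counteracts the apoptosis inhibitor XIAP (chromosome 11, 72301629 to 72313733), was 1.98-fold higher in shMtfr1l and 2.34-fold higher in the double knockdown than in shNT. It stood at 8.00, 8.35 and 7.23 CPM in shNT and 13.97, 11.6 and 21.2 in shMtfr1l. It stood at 7.97, 13.4 and 12.1 in shOpa1 and 22.9, 18.6 and 13.6 in the double knockdown. All libraries of shMtfr1l and of the double knockdown lay above all shNT libraries. The log2 fold changes were 0.99 ± 0.23 (SE; adjusted p = 0.00592) and 1.22 ± 0.23 (adjusted p = 3.37e-04). The shOpa1 libraries overlapped shNT (0.50 ± 0.23, adjusted p = 0.108). Without replicate 3 of every group, shMtfr1l no longer passed (0.65, adjusted p = 0.0763).

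Ifi27l2a, a small interferon-induced membrane protein, was the gene with the largest called change (chromosome 12, 103442167 to 103443680). It stood at 12.5, 8.61 and 9.36 CPM in shNT, 12.4, 11.8 and 11.1 in shMtfr1l. The shOpa1 libraries held 4.26, 4.33 and 7.10, and the double knockdown held 14.7, 15.4 and 11.9. The 3 shOpa1 libraries were the lowest of the 12. Ifi27l2a was 1.93-fold lower in shOpa1 than in shNT (log2 fold change -0.95 ± 0.20, SE; adjusted p = 3.06e-04) and 2.67-fold higher in the double knockdown than in shOpa1 (1.42 ± 0.20; adjusted p = 8.39e-06). The interaction was 1.20 ± 0.28 (adjusted p = 0.00819). The interaction did not pass without replicate 1 or without replicate 2 of every group (adjusted p = 0.272 and 0.137). The fall in shOpa1 did not pass without replicate 1 (adjusted p = 0.0623), while the difference between the double knockdown and shOpa1 passed in all 16 alternatives tried.

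Ifi47, an immunity-related GTPase counted here with the effectors (chromosome 11, 49076587 to 49096987), rose 1.53-fold in shOpa1. It stood at 15.6, 10.1 and 14.1 CPM in shNT, 13.1, 10.8 and 17.98 in shMtfr1l. With shOpa1 the values were 18.6, 20.0 and 22.3, and with both shRNAs 20.0, 18.3 and 15.8. The shOpa1 libraries all lay above shNT, and so did those of the double knockdown. The log2 fold change was 0.62 ± 0.17 in shOpa1 (adjusted p = 0.0047) and 0.45 ± 0.17 in the double knockdown (adjusted p = 0.0509). With replicate as a block the double knockdown passed too. The shOpa1 call was lost without shNT replicate 2 (adjusted p = 0.0639).

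The other 15 effectors passed in no comparison. Ifitm3, which blocks virus entry at membranes and is the most counted effector (chromosome 7, 141009590 to 141010744), stood at 221.9, 191.9 and 211.3 CPM in shNT and 218.5, 214.0 and 242.9 in shMtfr1l. It stood at 180.0, 180.9 and 231.2 in shOpa1 and 314.2, 260.9 and 214.0 in the double knockdown. Its double knockdown libraries overlapped those of shOpa1 (log2 difference 0.41 ± 0.15, adjusted p = 0.212). The widest spans were those of Rsad2 (viperin), from 0.396 to 7.75 CPM, Oas2, from 0.623 to 6.30, and Usp18, the protease that removes Isg15, from 3.56 to 32.2. The narrowest was that of Ifit2, from 41.5 to 69.5 CPM.

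Isg15, the ubiquitin-like modifier, is named after its values were seen. It stood at 18.2, 13.1 and 22.1 CPM in shNT and 22.5, 16.8 and 44.2 in shMtfr1l. It stood at 8.51, 24.9 and 31.0 in shOpa1 and 66.6, 37.4 and 21.7 in the double knockdown. The library of day 7 was the lowest of its group in shOpa1 and the highest in the double knockdown. The difference between the double knockdown and shNT was 1.24 ± 0.59 on the log2 scale and did not pass (adjusted p = 0.185). Ifi44 had the largest value of that comparison, at 10.1, 8.91 and 13.7 CPM in shNT and 41.6, 33.5 and 15.1 in the double knockdown. Its groups did not overlap, yet its log2 fold change of 1.46 ± 0.56 did not pass (adjusted p = 0.1). Ifit1, which binds viral RNA caps, stood at 16.6, 72.8 and 50.6 CPM in shOpa1, so that 1 group held both a low and the highest of its 12 values. The group means of Bst2 (tetherin) were 110.6 ± 7.11 CPM in shNT (SD, n = 3), 92.6 ± 17.7 in shOpa1, 145.4 ± 18.6 in shMtfr1l and 145.1 ± 42.9 in the double knockdown. Oas1a, Oasl2, Ifi35, Ifit3, Mx2 and Parp14, the remaining effectors, were positive in the double knockdown against shNT, with adjusted p from 0.151 to 0.679. Oas1a shares 40.9% of its 100-base stretches with another gene, mainly Oas1g, and Ifit3 shares 31.7%, mainly with Ifit3b, so their counts are uncertain where reads could fit either copy.

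**Figure D4:**
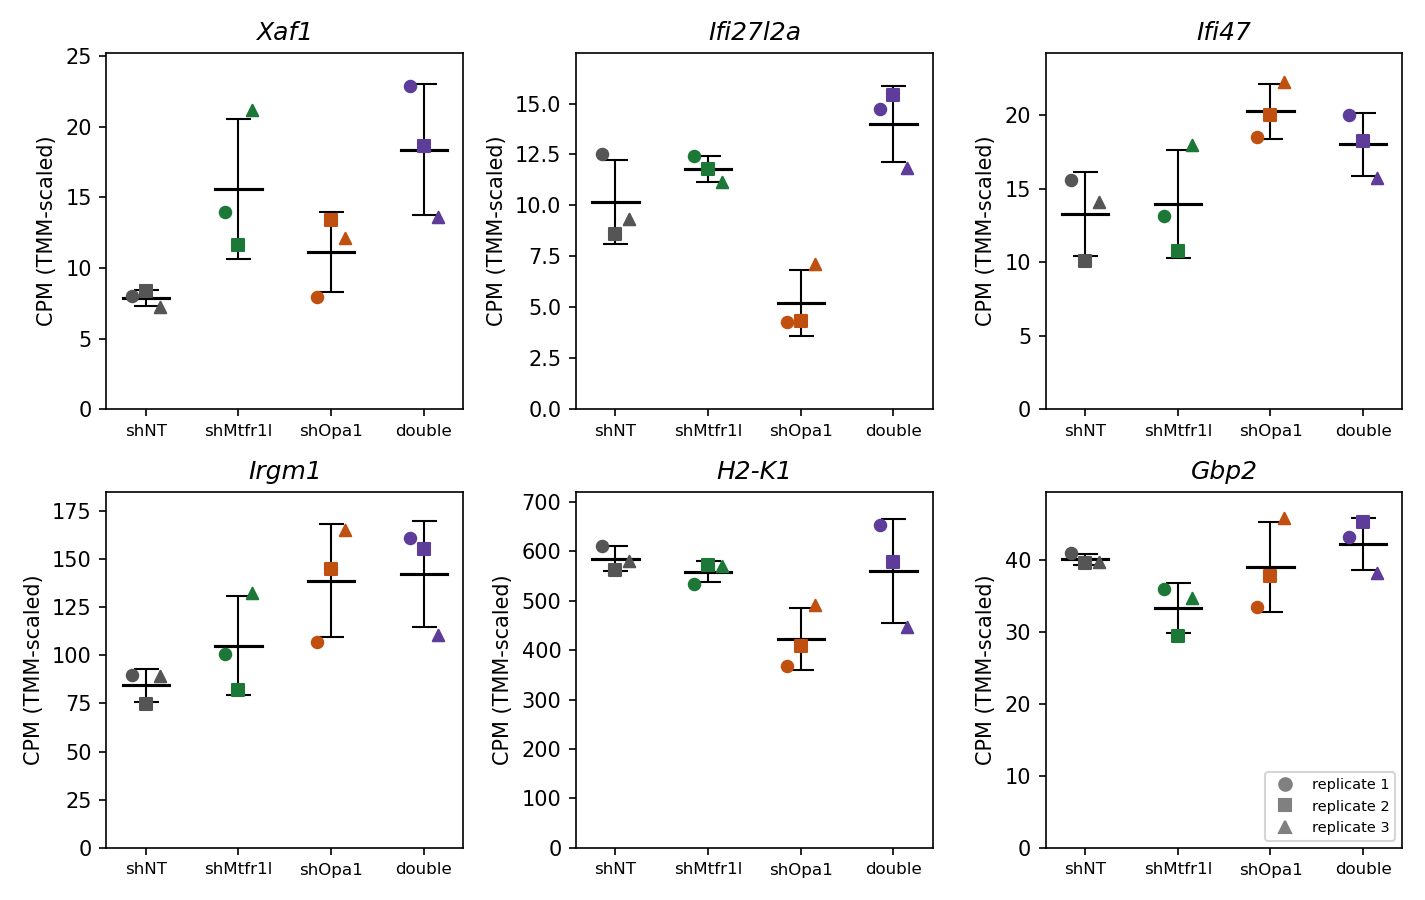
CPM of the 6 genes that passed in at least 1 comparison, with a point for each library (circle, square and triangle for replicates 1, 2 and 3) and bars for the mean and SD of 3. Ifi27l2a is lowest in the 3 shOpa1 libraries (4.26 to 7.10 CPM), and Xaf1 stands at 7.23 to 8.35 CPM in shNT and at 11.6 or more in shMtfr1l and the double knockdown.

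The interferon-induced GTPases act on vacuoles and membranes that hold pathogens, and Irgm1 also regulates autophagy and other members of its family. Irgm1 (chromosome 11, 48865249 to 48871346) was the most counted of the 6 and rose in both groups with Opa1 knockdown. It stood at 89.5, 74.6 and 89.4 CPM in shNT and 100.5, 82.0 and 132.6 in shMtfr1l. It stood at 106.8, 144.6 and 165.0 in shOpa1 and 160.6, 155.4 and 110.7 in the double knockdown. Every library with Opa1 knockdown lay above every shNT library. Irgm1 was 1.65-fold higher in shOpa1 (log2 fold change 0.72 ± 0.23; adjusted p = 0.0495) and 1.69-fold higher in the double knockdown (0.75 ± 0.23; adjusted p = 0.0493). Both calls lie close to the threshold: they were lost in 9 and 10 of 16 alternatives, among them the replicate block (adjusted p = 0.0896 and 0.0868).

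Gbp2, a guanylate-binding protein, was 1.27-fold higher in the double knockdown than in shMtfr1l (chromosome 3, 142620663 to 142638008). It stood at 40.9, 39.6 and 39.7 CPM in shNT, 35.9, 29.4 and 34.7 in shMtfr1l. The shOpa1 libraries held 33.4, 37.7 and 45.7, and the double knockdown held 43.1, 45.3 and 38.2. The shMtfr1l libraries lay below those of shNT and of the double knockdown without overlap. The log2 fold change was 0.34 ± 0.11 (adjusted p = 0.0178), and shMtfr1l against shNT gave -0.26 ± 0.11 (adjusted p = 0.122). The call against shMtfr1l was lost without shMtfr1l replicate 2, without double knockdown replicate 1 and without double knockdown replicate 2 (adjusted p = 0.121, 0.0611 and 0.0984), and with the first-set pair added the lower level in shMtfr1l than in shNT passed. Gbp3, Igtp and Iigp1 reached their highest values in double knockdown replicate 1 (37.2 CPM for Gbp3) or in shMtfr1l replicate 3 (19.3 for Igtp and 34.0 for Iigp1) and passed in no comparison. Gbp7 was negative in all 6 comparisons, at 20.0 ± 2.57 CPM in shNT and 16.1 ± 2.46 in the double knockdown (SD, n = 3; adjusted p = 0.151).

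Cxcl10, the chemokine of the group, which draws T cells, stood at 0.977, 0.603 and 3.40 CPM in shNT and 2.03, 0.759 and 0.870 in shMtfr1l. It stood at 0.841, 5.51 and 2.10 in shOpa1 and 2.28, 2.45 and 1.69 in the double knockdown (chromosome 5, 92346639 to 92348889). The groups overlapped and no comparison passed. Its libraries held 13 to 116 counts.

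Antigen processing and presentation held the most abundant of the 40 genes on a per-length scale, B2m. Divided by exonic length, mean CPM per kilobase was 1433 for B2m, 322.9 for H2-K1 and 143.4 for H2-D1, against 344.8 for Ifitm3, 161.1 for Bst2 and 0.743 for Oas2. B2m, the light chain of all class I molecules (chromosome 2, 122147687 to 122153082), stood at 1192, 1257 and 1236 CPM in shNT and 1354, 1335 and 1385 in shMtfr1l. It stood at 953, 1104 and 1139 in shOpa1 and 1395, 1348 and 1060 in the double knockdown. The 3 shOpa1 libraries lay below all shNT libraries, and the 3 shMtfr1l libraries above them. Neither difference passed (-0.21 ± 0.10 and 0.15 ± 0.10 on the log2 scale; adjusted p = 0.177 and 0.484).

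H2-K1, a class I heavy chain (chromosome 17, 33996012 to 34000333), fell 1.38-fold in shOpa1. It stood at 611.8, 561.7 and 580.7 CPM in shNT, 534.1, 571.9 and 570.0 in shMtfr1l. With shOpa1 the values were 368.2, 408.9 and 491.3, and with both shRNAs 654.0, 578.8 and 447.1. All shOpa1 libraries lay below shNT. The log2 fold change was -0.47 ± 0.14 (adjusted p = 0.0414), a call that was lost in 9 of 16 alternatives, among them the replicate block and leaving out any of the shNT libraries. H2-D1, the other classical heavy chain, stood at 273.1 ± 17.1 CPM in shNT and 210.9 ± 29.8 in shOpa1 (SD, n = 3), with -0.37 ± 0.13 (adjusted p = 0.0669).

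All 7 genes of this group were positive in the double knockdown against shOpa1, with a median of 0.32 on the log2 scale. An unadjusted p under 0.05 was reached by 6 of the 7, against 16.2% of all genes, yet none passed after adjustment. Set against each gene's mean over all libraries, the median of the 7 was lowest in shOpa1 replicate 1 (-0.48). It was highest in double knockdown replicate 1 (0.31). By labelled day the median of the 7 was 0.75, 0.29 and -0.10 on days 7, 8 and 9. The immunoproteasome subunits Psmb8 and Psmb9 stood at 19.8 ± 6.31 and 5.54 ± 2.02 CPM in shOpa1 and at 27.0 ± 4.85 and 8.99 ± 0.956 in the double knockdown (SD, n = 3). For Psmb9 these groups did not overlap (log2 difference 0.70 ± 0.24, adjusted p = 0.0945). The peptide transporter subunits Tap1 and Tap2 lay between 39.9 and 66.6 CPM and between 34.8 and 55.5 CPM over all libraries. In shOpa1 against shNT, 6 of the 7 were negative, with a median of -0.15.

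The rest of the pathway was read from a list of 105 further genes, of which 103 have a row and 87 were tested. No interferon gene passed the filter, and the highest count of any of the 11 listed was 4 (Ifnab, in shOpa1 replicate 2). Of the 87 genes, 5 rose and 1 fell in shMtfr1l against shNT, 11 and 8 in shOpa1 and 13 and 3 in the double knockdown. These are 5.75% and 1.15%, 12.6% and 9.20%, and 14.9% and 3.45% of the 87, against 5.56% and 5.19%, 14.3% and 15.1%, and 11.2% and 11.9% of all genes. Against shMtfr1l the double knockdown had 7 higher and 4 lower, against shOpa1 3 higher and none lower, and the interaction 1 of each (8.05% and 4.60%, 3.45%, and 1.15% each, against 9.72% and 11.7%, 2.31%, and 1.57% and 1.99% of all genes).

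Among all genes, 14.3% were called higher and 15.1% lower in shOpa1 than in shNT, and 11.2% higher in the double knockdown. Of 14 further sensors and adaptors, 3 were higher and 1 lower in shOpa1 than in shNT, and 4 were higher in the double knockdown. Traf3 and Mavs were among those higher in both. The others, named after their values were seen, were Ticam1 (higher) and Tlr3 (lower) in shOpa1 and Tlr7 and Tlr9 (higher) in the double knockdown. Tlr7 averaged 16.98 CPM in the double knockdown and 5.03 in shNT. The double knockdown libraries also held high sums of macrophage and leukocyte markers, whose part in this rise was not tested. Tlr9 lay between 0.0945 and 2.61 CPM in all libraries, with as few as 2 counts. Traf3, which links the sensors to the kinases that activate Irf3, rose in all 3 knockdown groups against shNT. It stood at 44.2, 51.2 and 51.6 CPM in shNT, 71.8, 62.2 and 55.9 in shMtfr1l. The shOpa1 libraries held 84.7, 87.8 and 77.0, and the double knockdown held 81.1, 78.0 and 79.3. The log2 fold changes were 0.37 ± 0.09, 0.76 ± 0.08 and 0.69 ± 0.08 (SE; adjusted p = 0.00268, 3.44e-09 and 4.96e-08). The last 2 passed in all 16 alternatives tried, while the change in shMtfr1l was lost without its replicate 1 and without replicate 1 of every group (adjusted p = 0.28). Mavs, the adaptor on mitochondria through which RIG-I and MDA5 signal, rose in shOpa1 (0.56 ± 0.11; adjusted p = 1.53e-04) and in the double knockdown against shNT (0.49 ± 0.11; adjusted p = 0.00124). It stood at 20.9, 28.5 and 28.5 CPM in shNT, 28.9, 27.2 and 23.4 in shMtfr1l. With shOpa1 the values were 40.4, 37.0 and 38.1, and with both shRNAs 35.4, 38.2 and 36.0. The groups with and without Opa1 knockdown did not overlap for Mavs, and both calls passed in all 16 alternatives.

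Among the receptors and kinases, Tyk2 and Il10rb fell in shOpa1. Tyk2, a kinase of the type I receptor, stood at 38.3, 35.3 and 36.3 CPM in shNT, 22.9, 26.8 and 26.3 in shOpa1, and 35.3, 36.1 and 32.6 in the double knockdown. Its log2 fold change was -0.53 ± 0.11 in shOpa1 (adjusted p = 1.36e-04) and -0.08 ± 0.10 in the double knockdown against shNT (adjusted p = 0.652). The double knockdown exceeded shOpa1 by 0.45 ± 0.11 (adjusted p = 0.00657), a call lost in 4 of 16 alternatives, among them leaving out shOpa1 replicate 1, with an adjusted p of up to 0.153. Il10rb, a subunit of the interferon lambda receptor, fell by 0.47 ± 0.09 on the log2 scale (adjusted p = 1.39e-04). Ifngr2, a subunit of the interferon gamma receptor, was lower in the double knockdown than in shNT (-0.27 ± 0.06; adjusted p = 0.00108).

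Of the negative regulators, Ptpn2, a tyrosine phosphatase that dampens cytokine signalling, fell in shOpa1 (-0.72 ± 0.15; adjusted p = 2.00e-04) and in the double knockdown against shNT (-0.63 ± 0.15; adjusted p = 0.00115). It stood at 18.5, 21.6 and 20.8 CPM in shNT, 14.8, 18.6 and 20.5 in shMtfr1l. The shOpa1 libraries held 13.7, 11.8 and 11.6, and the double knockdown held 12.9, 13.7 and 12.7. Socs3, a feedback inhibitor of cytokine receptors, rose in shOpa1 against shNT (0.42 ± 0.09; adjusted p = 2.41e-04) and in the double knockdown against shMtfr1l (0.44 ± 0.09; adjusted p = 2.51e-04). These 4 calls and those of Tyk2 and Il10rb in shOpa1 passed in all 16 alternatives. Nlrc5, the transactivator of class I genes, was higher in the double knockdown than in shMtfr1l, at 14.4, 11.1 and 10.4 CPM against 6.91, 4.90 and 6.96 (0.94 ± 0.21; adjusted p = 7.21e-04). Irf5, a factor of macrophages and other immune cells, was higher in the double knockdown than in shOpa1, at 12.6, 12.95 and 16.2 CPM against 7.52, 6.66 and 8.77 (0.86 ± 0.25; adjusted p = 0.0465). This call was lost in 12 of 16 alternatives, and the double knockdown libraries held high sums of macrophage and leukocyte markers, whose part in it was not tested.

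Among further genes of antigen presentation, Erap1, which trims peptides in the endoplasmic reticulum, rose in all 3 knockdown groups against shNT. It stood at 40.2, 44.6 and 45.9 CPM in shNT and at 53.9 to 61.6 in the 9 other libraries. The log2 fold changes were 0.35 ± 0.08 (shMtfr1l), 0.36 ± 0.08 (shOpa1) and 0.45 ± 0.08 (double knockdown; adjusted p = 0.00333, 7.77e-04 and 7.23e-05). The change in shMtfr1l was lost without replicate 1 of every group (adjusted p = 0.0766). H2-T23, a non-classical class I gene, was higher in the double knockdown than in shOpa1 (0.47 ± 0.13; adjusted p = 0.0196), a call lost without shOpa1 replicate 1 or without double knockdown replicate 1 or 2. Pdia3, a chaperone of the peptide loading complex, was lower in the double knockdown than in shMtfr1l (-0.21 ± 0.04; adjusted p = 2.55e-04). Of the 7 class II genes none passed, and all 7 were negative in the double knockdown against shNT. In shMtfr1l against shNT, Gbp6, Canx and Pdia3 were called higher and Irf3 lower, and each lost that call in 7 to 10 of 16 alternatives. Samhd1, an antiviral nucleotide hydrolase, was higher in the double knockdown than in shNT (0.34 ± 0.08; adjusted p = 0.00229), and Znfx1 was higher in the double knockdown than in shMtfr1l (0.28 ± 0.07; adjusted p = 0.00548). Leaving out 1 replicate number of every group, the second, ended both calls (adjusted p = 0.0715 and 0.0812).

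In the first set most of the 40 genes were lower in shMtfr1l than in shNT. The count columns of the 2 samples, 3 for each, were summed to 67068683 counts for shNT and 62923192 for shMtfr1l, and with 1 labelled sample per condition there is no test. Of the 40 genes, 37 were lower in shMtfr1l and 3 higher (Ifi35, Ifi47 and Rsad2). The direction was the same in both sets for 12 genes, 9 of them lower and 3 higher in shMtfr1l, and opposite for 28, of which Xaf1 alone was called in the second set. The 40 genes had a median log2 difference in the first set of -0.42 against 0.0002 for all 15198 genes kept. More than 1.5-fold lower were 12 of the 40 (10.6% of all genes kept), and none was more than 1.5-fold higher (6.17%). Oas2 stood at 2.92 CPM in shNT and 1.34 in shMtfr1l, Ifit3 at 33.4 and 16.5, and Stat2 at 68.7 and 39.9. Xaf1 stood at 13.8 CPM in shNT and 9.95 in shMtfr1l, the opposite direction to its call in the second set. When this pair was added to the test with set as a covariate, Xaf1 no longer passed (log2 fold change 0.59, adjusted p = 0.274).

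**Figure D5:**
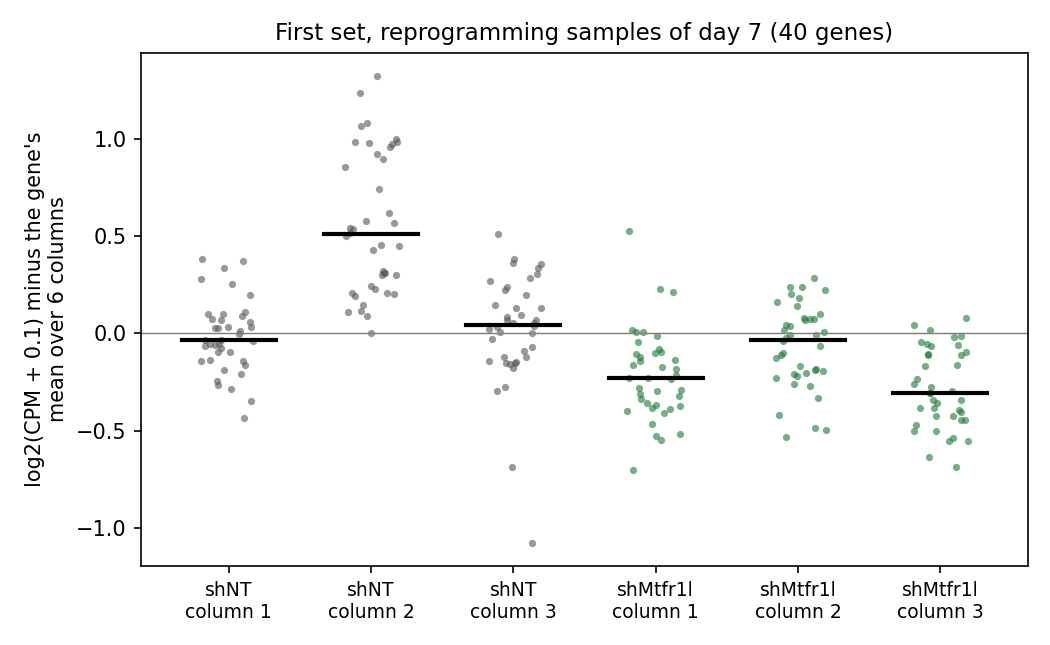
Each point is 1 of 40 genes in 1 count column of the first set, and the y axis gives log2(CPM + 0.1) minus the gene's mean over the 6 columns, with the median as a black bar. Column 2 of shNT has a median of 0.51, and the other 5 columns lie between -0.31 and 0.04.

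A large part of this difference lies in 1 column. Column 2 of shNT was the highest of the 6 for 34 of the 40 genes, against 17.7% of all genes kept. Without it 32 of 40 genes were lower in shMtfr1l, and the median was -0.18. All 3 shMtfr1l columns lay below all 3 shNT columns for 14 of the 40 genes, against 20.6% of all genes kept, among them Stat2, at 62.1, 75.8 and 66.9 CPM in shNT and 36.3, 44.3 and 39.3 in shMtfr1l. Macrophage and leukocyte markers summed to 199.0 CPM in shNT and 107.3 in shMtfr1l, with 13 markers lower and 3 higher. Their part in the difference was not tested. H2-K1 stood at 148.4 CPM in shNT and 142.3 in shMtfr1l, and B2m at 524.7 and 468.9.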

How the data were processed

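Gene-level raw counts were deposited as featureCounts output. The headers of these files give version 2.0.6, counting by strand, each mate counted by itself and an mm10 annotation of UCSC. The submitters' processing notes list FastQC, DESeq2 and mm10. Which aligner was used was not given in the sources used here. In the first set, 3 count columns were summed per sample, and 12 fibroblast columns that could not be tied to 1 labelled sample were not used.

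The members and gene lists were chosen with earlier results of these data known. Counts were scaled with TMM, filtered with filterByExpr and compared with edgeR 4.0.16 in R 4.3.3 (quasi-likelihood test with robust estimation, 1 coefficient per group over all 12 libraries, 8 residual degrees of freedom). P-values were adjusted by Benjamini-Hochberg over 14162 genes and called under 0.05. The common biological coefficient of variation was 12.04%. SEs were derived from the log2 fold change and the F statistic. Robust estimation was not written into the design in advance. It was chosen after the numbers of genes called had been compared with earlier results of these data, and the fit without it is an alternative, as are DESeq2 1.42.0, other normalization and filters and leaving out libraries. The code was tested on simulated data. Log2 CPM of single libraries uses a prior count of 2. Floors of 3 counts cover counting error only, and as mates were counted singly (65.86% of counts from 1 to 20 were even), 3 counts can be as few as 2 fragments. The titles tie replicate numbers to shared days, so a fit with replicate as a block was run. Deviations of same-numbered libraries from their group means correlated at -0.19 to 0.12 over all genes, with 1 of 18 pairs above 0.1. The rule for named genes took every member called in a comparison, the most counted member of each role, and up to 6 called genes per comparison from the other pathway genes. Promoters come from RefSeq.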

Additional observations from a re-analysis of the deposited data

Results flagged for a closer look

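The interaction test of edgeR asks whether the effect of a knockdown differs with the other knockdown, and it called 3 genes. These were 1 of the 40 genes, and 1 higher and 1 lower of the 87 further genes tested (1.15% each). Of all genes tested, 1.57% were called higher and 1.99% lower. Ifi27l2a had the largest interaction of the 40 genes, 1.20 on the log2 scale (adjusted p = 0.00819): it was lower in shOpa1 than in shNT and higher in the double knockdown than in shOpa1, in 3 of 3 libraries each. Tyk2 had an interaction of 0.56 (adjusted p = 0.0263), and Traf3 one of -0.43 (adjusted p = 0.0299), with log2 fold changes against shNT of 0.37 (shMtfr1l), 0.76 (shOpa1) and 0.69 (double knockdown). The interaction of Ifi27l2a was lost in 3, that of Tyk2 in 10 and that of Traf3 in 12 of 21 alternatives. Mtfr1l and Opa1 RNA were each less depleted with both shRNAs than with either alone, and the part of this in the interactions was not tested.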

How the results depend on the processing

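Of the 10 gene calls among the 40 genes, 2 passed in every alternative run, Xaf1 in the double knockdown against shNT and Ifi27l2a in the double knockdown against shOpa1, and none changed direction. The number called moved most. With only the 2 groups compared in the fit it was 3 in shMtfr1l against shNT, and in the double knockdown 11 against shNT, 2 against shMtfr1l and 2 against shOpa1 (10.3%, 26.4%, 23.1% and 5.46% of all genes). With no filter on low counts it was 5, 3 and 5 in the 3 comparisons of the double knockdown (19.0%, 18% and 4.89% of all genes), and with DESeq2's test 4 against shNT and 2 against shOpa1 (25.3% and 5.82%). Without robust estimation, added after the data were seen, it was 7, 3 and 5 (23.4%, 21.5% and 4.22%). In that fit 15 genes were called in at least 1 comparison, among them all 6 genes called with robust estimation. The share of all genes called in at least 1 comparison was not computed. With the replicate block, 2 genes were called in shOpa1 against shNT in place of 4, where 28.3% of all genes were called (H2-K1 and Irgm1 were lost), and the other counts were 1, 2, 1, 1 and 1, with Ifi47 in place of Irgm1 in the double knockdown against shNT. The block changed no other call among the 40 genes. Among the further pathway genes named, Irf5 in the double knockdown against shOpa1 and the interaction of Traf3 did not pass with it.

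Leaving out each library or replicate number in turn gave 0 to 1 genes in shMtfr1l against shNT, 1 to 10 in shOpa1 against shNT, 1 to 9, 0 to 12 and 1 to 17 in the double knockdown against shNT, shMtfr1l and shOpa1, and 0 to 9 in the interaction. In the same order the shares of all genes called ran from 5.54% to 8.91%, 21.2% to 26.0%, 15.4% to 20.1%, 13.8% to 19.9%, 1.40% to 4.07% and 1.13% to 3.72%. The median of the 40 genes ran from 0.0045 to 0.58 against shOpa1 and from -0.24 to 0.60 in the interaction. Without shOpa1 replicate 1 and double knockdown replicate 1 together, also added after the data were seen, 8 genes were called in shOpa1 against shNT, 1 in the double knockdown against shNT, 0 against shMtfr1l and 0 in the interaction (24.5%, 17.6%, 15.8% and 1.85% of all genes), with medians of 0.0046 against shOpa1 and -0.23 in the interaction. In the first set, columns numbered 1, 2 and 3 alone gave medians of -0.17, -0.65 and -0.31 in place of -0.42, and scaling to the library total -0.36. The cause of these changes was not tested. Cxcl10, Rsad2 and Oas2 had libraries under 1 CPM, where counting error is largest.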
